A study of Rattus norvegicus with 6 samples.

Results

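The Hox-cluster miRNAs miR-10a, miR-10b and miR-196 were followed in small RNA libraries of rat nucleus pulposus, the soft centre of the disc between vertebrae. Members were the rows of the deposited table named miR-10a, miR-10b, miR-196a, miR-196b or miR-196c. They came to 6 rows and, once a row that repeats the miR-196b sequence was merged, to 5 of the 442 distinct mature sequences. The study compared discs labelled as compressed for 4 weeks to give intervertebral disc degeneration (IDD, 3 libraries) with discs labelled as carrying K-wires, thin metal pins, for 4 weeks (Sham, 3 libraries), to find miRNAs that respond to mechanical load. Both groups are rat nucleus pulposus total RNA, and strain, sex and age do not appear among the labels. Whether the 3 libraries of a group come from separate animals, and how many discs went into each, is not labelled. The p-values here cover the spread among libraries, which may be technical.

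The clusters of Hox genes, which set position along the body axis, also carry genes for miRNAs. miR-10a and miR-10b are close relatives found in different Hox clusters, and miRNAs of this family have been studied as regulators of Hox transcripts, of NF-kB signalling in endothelium (miR-10a, human cells) and of invasion in breast cancer (miR-10b, human cells). miR-196 is known in mouse for directing cleavage of Hoxb8 mRNA. A mature miRNA finds its targets mainly through its seed, bases 2 to 8 from the 5′ end.

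In RefSeq's annotation of the rat assembly GRCr8, Mir10a lay between Hoxb5 and Hoxb4 on chromosome 10 and Mir196c on the same chromosome between Hoxb13 and Hoxb9. Mir10b lay within the span of Hoxd4 on chromosome 3, Mir196a between Hoxc10 and Hoxc9 on chromosome 7, and Mir196b between Hoxa9 and Hoxa10 on chromosome 4. The authors' build is named as Rnor_6.0 in the submitters' processing notes, and the table gives no positions, so the positions here come from matching the 5 sequences to RefSeq, where each was identical to the RefSeq entry of its name. The mature sequences are shown because their starts differ, with the seed in capitals.
rno-miR-10a-5p: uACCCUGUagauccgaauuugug
rno-miR-10b-5p: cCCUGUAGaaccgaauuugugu
rno-miR-196a-5p: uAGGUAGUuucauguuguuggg
rno-miR-196b-5p: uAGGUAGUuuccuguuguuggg
rno-miR-196c-3p: aCAACAACaccaaaccaccuga
The sequence listed as miR-10b-5p began 2 bases downstream of the start of miR-10a-5p, so that the seeds of the 2 rows, ACCCUGU and CCUGUAG, were not the same. Each of these seeds occurred in 1 row of the table. The seed AGGUAGU was shared by miR-196a-5p and miR-196b-5p, which differed by the substitution A12C, counted from the 5′ end of miR-196a-5p.

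The RefSeq hairpins (GRCr8, plus strand) show where each listed sequence sits, in capitals. Mir10a is at chr10:81779709-81779818 and Mir10b at chr3:80035859-80035967.
Mir10a: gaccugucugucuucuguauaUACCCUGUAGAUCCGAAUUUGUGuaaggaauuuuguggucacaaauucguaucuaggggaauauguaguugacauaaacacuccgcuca
Mir10b: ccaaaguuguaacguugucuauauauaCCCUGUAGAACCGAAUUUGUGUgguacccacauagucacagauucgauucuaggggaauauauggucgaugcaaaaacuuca
The Mir10b hairpin holds UA just before its listed sequence, and a 23-base window that starts there differs from miR-10a-5p at 1 base (U12A, counted from the 5′ end of miR-10a-5p). The differing base is in capitals in the next lines.
miR-10a-5p: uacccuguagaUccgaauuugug
Mir10b window: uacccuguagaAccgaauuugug
The window has the seed of miR-10a-5p and is the form of miR-10b named in mouse and human. It was listed in 0 of the 442 sequences used here. How tags of that form were counted, as miR-10b-5p, as miR-10a-5p or not at all, is stated neither in the labels nor in the table. All values of miR-10b-5p below therefore belong to the shorter-started sequence as listed, and the split between miR-10a-5p and miR-10b-5p is uncertain. The 3p arms of both hairpins are not analysed here.

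The libraries held 169783 to 253807 tags. Sequences with an established miRNA name, as against provisional names built from a chromosome, took 77.8% to 83.1% of the tags in IDD and 49.5% to 56.2% in Sham, so shares depend on the denominator. miR-1b, a muscle miRNA, was the most abundant established sequence, and the skeletal muscle list held 48.0% to 52.2% of established tags in IDD and 40.4% to 40.9% in Sham, or 39.1% to 43.3% and 20.2% to 22.8% of all tags. miR-140 and miR-455, miRNAs of cartilage, held 15.3% to 15.9% of established tags in IDD and 15.4% to 18.1% in Sham, where the groups overlapped, and 12.3% to 12.9% and 7.62% to 10.2% of all tags, where IDD was higher. The members of this list did not move alike in the fit. miR-140-3p rose by 0.29 (adjusted p = 0.0230, edgeR) and miR-455-3p by 1.16 (adjusted p = 0.00423) on the log2 scale. The mean of miR-455-3p in Sham was under the filter on low counts. miR-140-5p had 0.27 (adjusted p = 0.0681) and miR-455-5p −0.04 (adjusted p = 0.916), and neither passed. Markers of cartilage were therefore present in every library beside a large share of muscle sequence.

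rno-miR-10a-5p was the abundant member and was lower in every IDD library. Its tags numbered 757, 756 and 843 in IDD 1, 2 and 3, and 3297, 2896 and 1877 in Sham 1, 2 and 3. As CPM, the tag count relative to the TMM-scaled library total, these were 2928, 3865 and 3513 CPM in IDD against 15490, 12176 and 10582 CPM in Sham. The groups were well apart, with the lowest Sham library 2.74-fold above the highest IDD library, while the spread within a group was 1.32-fold in IDD and 1.46-fold in Sham. Values of the groups did not overlap for 66.4% of all tested sequences, so separation as such was common. With edgeR's quasi-likelihood test over all 131 sequences that passed the filter on low counts, miR-10a-5p fell by 1.89 on the log2 scale (SE 0.15, 3.72-fold lower, 95% interval of the log2 change −2.23 to −1.56, Benjamini-Hochberg adjusted p = 2.04e-06), from 12749 ± 2503 to 3435 ± 473 CPM (SD, n = 3 each). Both miR-10 members were tested and 1 of them passed, against 59.5% of all tested sequences (78 of 131), and 30.5% passed and were lower. Passing was thus common, and the size of the change was less so. miR-10a-5p had the third lowest log2 fold change of the 108 tested established miRNAs, after miR-200a-3p, which was not listed in any IDD library, and miR-1843a-3p (log2 −2.69), and just before miR-16-5p (−1.86). Those 3 sequences had mean values of at most 209 CPM in either group, so among these 4 established miRNAs miR-10a-5p was the only abundant one. Among all 131 tested sequences, provisional names included, its log2 fold change had rank 5 from the lowest. An abundant sequence with a provisional name fell further (log2 −2.29), from 7206 CPM in Sham to 1484 CPM in IDD. A large fall at high abundance was therefore not particular to miR-10a-5p.

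**Figure D1:**
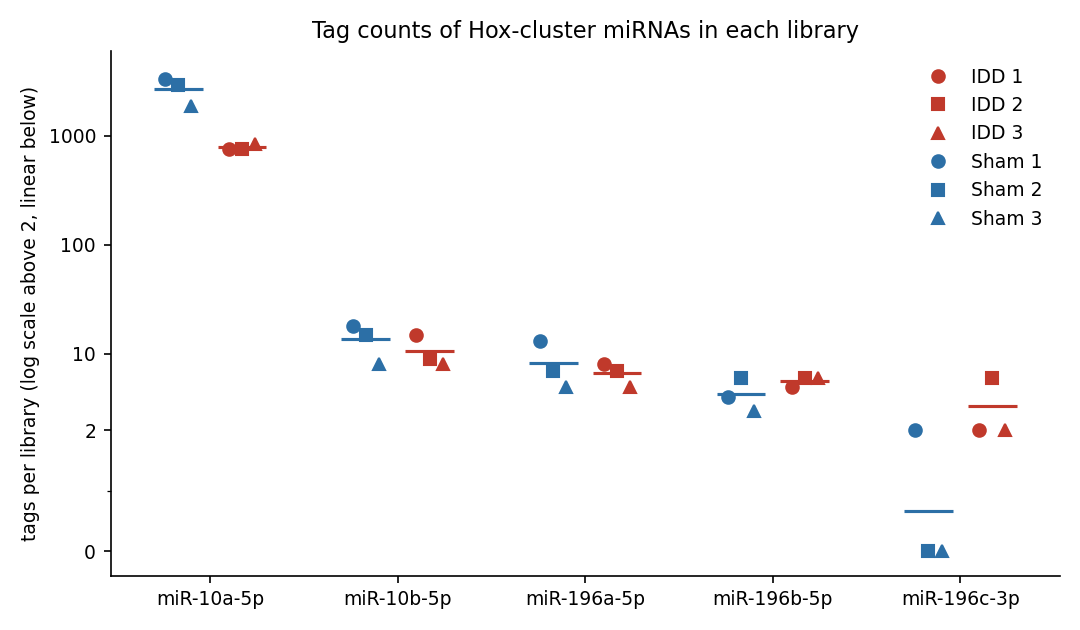
Tag counts per library (vertical axis, log scale above 2 tags and linear below) of the 5 Hox-cluster sequences, with Sham in blue and IDD in red, 1 symbol per library and a bar at each group's mean. The 3 IDD libraries hold 756 to 843 tags of miR-10a-5p and the 3 Sham libraries 1877 to 3297, while the other 4 sequences lie at 18 tags or fewer.

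Its place among the miRNAs of the tissue moved accordingly. In Sham 1, 2 and 3 miR-10a-5p ranked 8 in each library by tag count among established miRNAs. In IDD 1, 2 and 3 it ranked 21, 14 and 16. Of the tags with an established name it made up 0.370%, 0.512% and 0.483% in IDD and 2.63%, 2.14% and 1.97% in Sham (0.455% ± 0.0750 against 2.24% ± 0.342, SD, n = 3 each). The groups did not overlap, and the exact two-sided permutation test gave p = 0.1, the smallest that 3 against 3 libraries allow (0.1 also after Benjamini-Hochberg adjustment over the 4 shares and ratios tested). Counting error was small beside these differences, the Wilson 95% interval being 0.344% to 0.397% in IDD 1 and 1.88% to 2.06% in Sham 3. Of all tags, provisional names included, it held 0.366% ± 0.0510 in IDD and 1.18% ± 0.101 in Sham, a ratio of 3.24 against 4.93 for established tags.

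**Figure D2:**
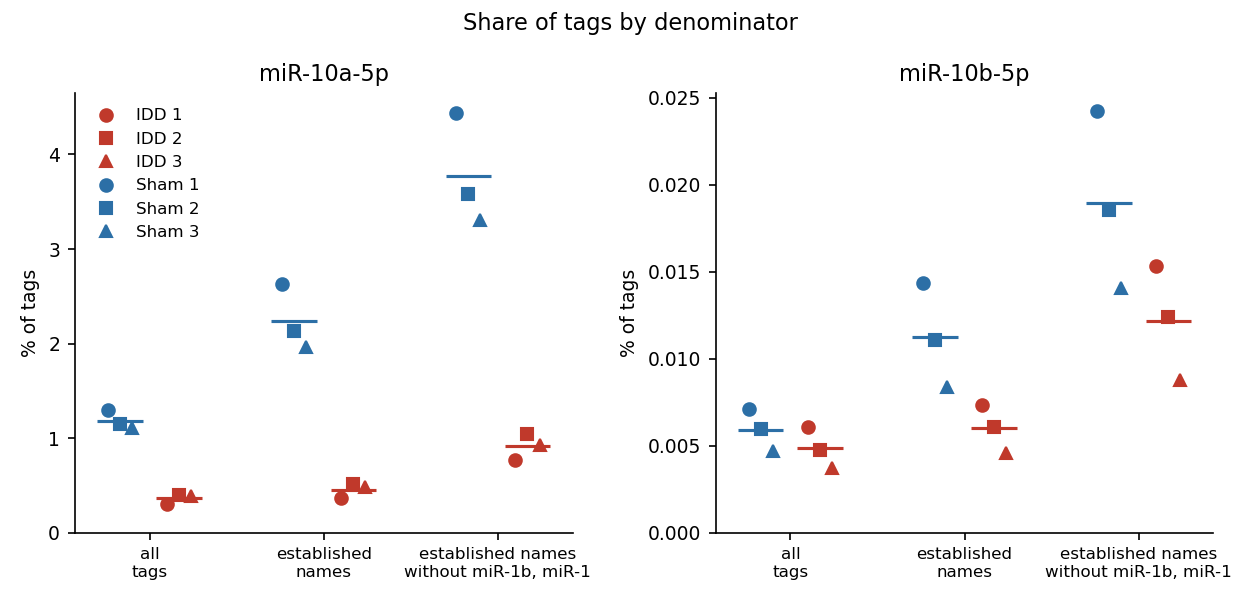
Share of tags (vertical axis, %) of miR-10a-5p (left) and miR-10b-5p (right) in each library under 3 denominators, with Sham in blue, IDD in red and a bar at each group's mean. For miR-10a-5p the groups stand apart under each denominator drawn, whereas for miR-10b-5p they overlap over all tags and over established tags without miR-1b and miR-1.

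The separation of miR-10a-5p was also present with the most abundant sequences left out of the denominator. Without miR-1b and miR-1 in the denominator, miR-10a-5p held 0.914% ± 0.135 of the remaining established tags in IDD and 3.77% ± 0.592 in Sham. Without the 10 most abundant other established miRNAs it held 3.70% ± 0.565 and 13.3% ± 1.48 (SD, n = 3 each). The Sham to IDD ratio was 4.13 and 3.61, and the groups did not overlap in either case.

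rno-miR-10b-5p was scarce, and it did not pass the test. Its tags numbered 15, 9 and 8 in IDD 1, 2 and 3 and 18, 15 and 8 in Sham 1, 2 and 3. These are 58.0, 46.0 and 33.3 CPM in IDD and 84.6, 63.1 and 45.1 CPM in Sham, so that the groups overlapped. The fit gave a log2 fold change of −0.50 (SE 0.27, adjusted p = 0.193, edgeR's quasi-likelihood test), from 64.2 ± 19.8 to 45.8 ± 12.3 CPM (SD, n = 3 each). IDD 3 lay under the filter of about 43.4 CPM and every Sham library above it. IDD 1 and IDD 2 reached the filter too, but IDD alone would not have let the sequence in. Sham alone, where it was higher, would have, and its fold change is given as description only. Fitted without the filter it was −0.43 (adjusted p = 0.252, edgeR). With 32 summed tags in IDD and 41 in Sham, the ratio of Sham to IDD per TMM-scaled tag was 1.42 with an exact 95% counting interval of 0.870 to 2.32, which is wider than the SE would give and includes no change. Per established tag the ratio of IDD to Sham was 0.528 with an interval of 0.322 to 0.859, which does not include no change, and per tag of all kinds it was 0.810 with an interval of 0.494 to 1.32, which does. These intervals cover counting error only, and whether they include no change depends on the scaling.

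The share of miR-10b-5p turned on the denominator. Over established tags it was 0.00733%, 0.00609% and 0.00458% in IDD and 0.0143%, 0.0111% and 0.00838% in Sham, and the groups did not overlap (exact two-sided permutation test, p = 0.1). Over all tags it was 0.00485% ± 0.00118 in IDD and 0.00592% ± 0.00119 in Sham (SD, n = 3 each), and the groups overlapped. IDD 1, with 15 tags, equalled Sham 2 in count.

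The ratio of miR-10a-5p to miR-10b-5p needs no scaling between libraries. It was 50.5, 84.0 and 105 in IDD 1, 2 and 3 and 183, 193 and 235 in Sham 1, 2 and 3. Every IDD library lay below every Sham library. On the log2 scale the mean was 6.26 ± 0.54 in IDD and 7.66 ± 0.19 in Sham (SD, n = 3 each), a difference of −1.41 (exact two-sided permutation test, p = 0.1, the smallest possible). Summed over libraries, miR-10a-5p was 73.6 times miR-10b-5p in IDD and 197 times in Sham, and the Sham ratio was 2.67 times that of IDD (exact conditional 95% interval 1.63 to 4.36, counting error only). The rarer sequence sets the width of this interval. miR-10a-5p made up 96.8% of the tags of all 5 members in IDD and 99.01% in Sham. The summed share of miR-10a-5p and miR-10b-5p, 0.461% ± 0.0740 of established tags in IDD and 2.25% ± 0.345 in Sham, does not depend on how tags were split between these rows (exact two-sided permutation test, p = 0.1).

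**Figure D3:**
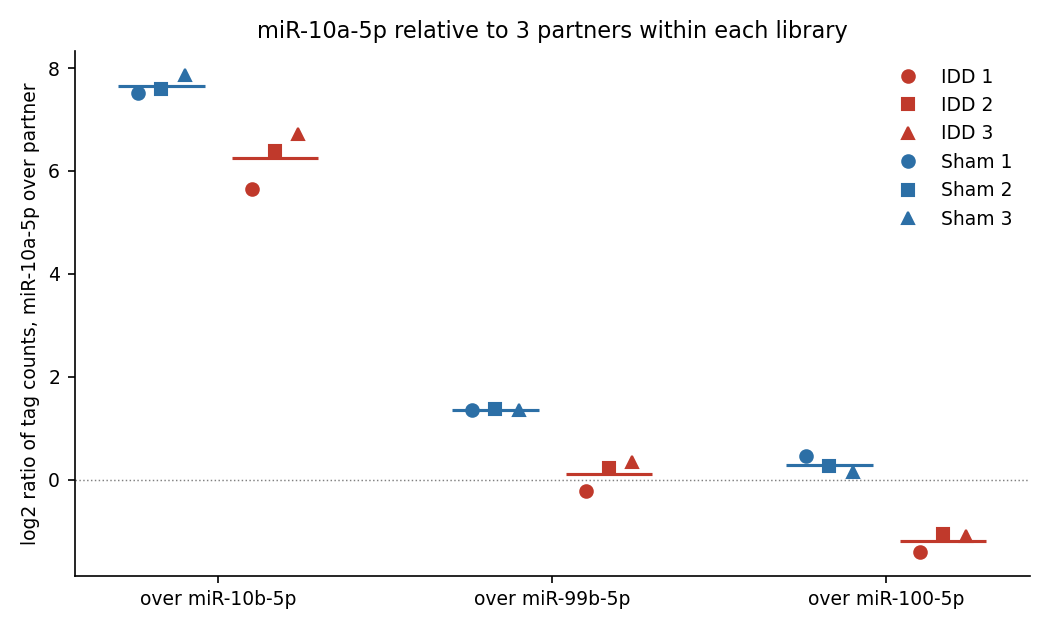
The log2 ratio of miR-10a-5p tags to those of miR-10b-5p, miR-99b-5p and miR-100-5p (vertical axis) in each library, with Sham in blue, IDD in red and a bar at each group's mean. For each of the 3 partners all IDD libraries lie below all Sham libraries, and the miR-10b-5p ratio has the wider spread in IDD (SD 0.54).

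The miR-196 members were near the limit of detection, and none entered the test. miR-196a-5p had 8, 7 and 5 tags in IDD and 13, 7 and 5 in Sham. miR-196b-5p had 5, 6 and 6 tags in IDD and 4, 6 and 3 in Sham. For both, the counts and the shares of all tags overlapped between the groups, whereas the share of established tags of miR-196a-5p was lower in every IDD library (0.00384% ± 0.000940 against 0.00692% ± 0.00297, SD, n = 3 each). The 95% counting interval of the IDD to Sham ratio per TMM-scaled tag was 0.381 to 1.36 for miR-196a-5p and 0.541 to 2.65 for miR-196b-5p, and both include no change. miR-196c-3p had 2, 6 and 2 tags in IDD and 2 in Sham 1, and was not listed in Sham 2 and Sham 3. The lowest value listed anywhere in the table was 2, so a blank can also stand for 1 tag. The ratio of its summed counts, 10 in IDD against 2 in Sham, was 4.52 per TMM-scaled tag with an interval of 0.964 to 42.5, and its shares overlapped between the groups over established tags but not over all tags. Fitted without the filter on low counts, 0 of these 3 sequences passed in edgeR's quasi-likelihood test, 0 had an unadjusted p below 0.05 and the adjusted p was 0.432, 0.604 and 0.0780 for miR-196a-5p, miR-196b-5p and miR-196c-3p, where 64.5% of all 442 sequences passed. DESeq2 and limma were run only on the filtered table. miR-196a-5p and miR-196b-5p differ by 1 base, so their split is uncertain as well.

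miR-10a-5p also fell against its more distant relatives. The wider miR-10 family includes miR-99, miR-100 and miR-125, whose seeds differ from that of miR-10a-5p. Their sequences are shown, again with the seed in capitals, for the 2 that are as abundant as miR-10a-5p.
miR-100-5p: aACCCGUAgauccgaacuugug
miR-99b-5p: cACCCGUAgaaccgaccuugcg
The ratio of miR-10a-5p to miR-100-5p tags was 0.377, 0.479 and 0.469 in IDD and 1.36, 1.19 and 1.11 in Sham. The ratio to miR-99b-5p was 0.858, 1.16 and 1.27 in IDD and 2.54, 2.59 and 2.55 in Sham. In both cases the groups did not overlap, and miR-10a-5p went from the more to the less abundant of the pair with miR-100-5p. Both partners themselves fell, miR-99b-5p by 0.65 (SE 0.15, adjusted p = 0.00174, edgeR) and miR-100-5p by 0.42 (SE 0.11, adjusted p = 0.00408) on the log2 scale. The call of miR-100-5p was lost when scaled by library size and in the authors' normalized table (adjusted p up to 0.185).

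Of the 8 listed sequences of miR-99, miR-100 and miR-125, 6 were abundant enough to test, and 3 rose, 2 fell and 1 did not pass, with a median log2 fold change of 0.45 against 0.03 over all tested sequences, of which 29.0% rose and 30.5% fell. miR-125a-5p rose by 1.78 (SE 0.30, adjusted p = 0.000307, edgeR), from 16.25 ± 6.596 to 55.5 ± 12.5 CPM (SD, n = 3 each). It had 2, 4 and 4 tags in the Sham libraries, under the filter of about 43.4 CPM, and entered the test only through IDD, where it was high, so its rise lends nothing to the counts above. Without it the median of the other 5 was 0.18. miR-99a-5p (1.33, SE 0.36, adjusted p = 0.0101) and miR-99b-3p (0.71, SE 0.22, adjusted p = 0.0339) also rose, and miR-125b-5p had a log2 fold change of 0.18 (adjusted p = 0.209). In Sham 1 miR-99a-5p (42.3 CPM) and in Sham 2 miR-99b-3p (42.0 CPM) were under the filter, while both reached it in every IDD library. Sham alone would not have let them in, so these rises too lend nothing to the counts above or to the median of 0.18. The calls of miR-99b-3p and miR-99a-5p were lost under 6 and 2 of 16 settings (adjusted p up to 0.217 and 0.0724), and miR-125b-5p passed under 2. The signs of all 6 were the same under every setting run. The Hox-cluster miR-615 is not analysed here.

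**Figure D4:**
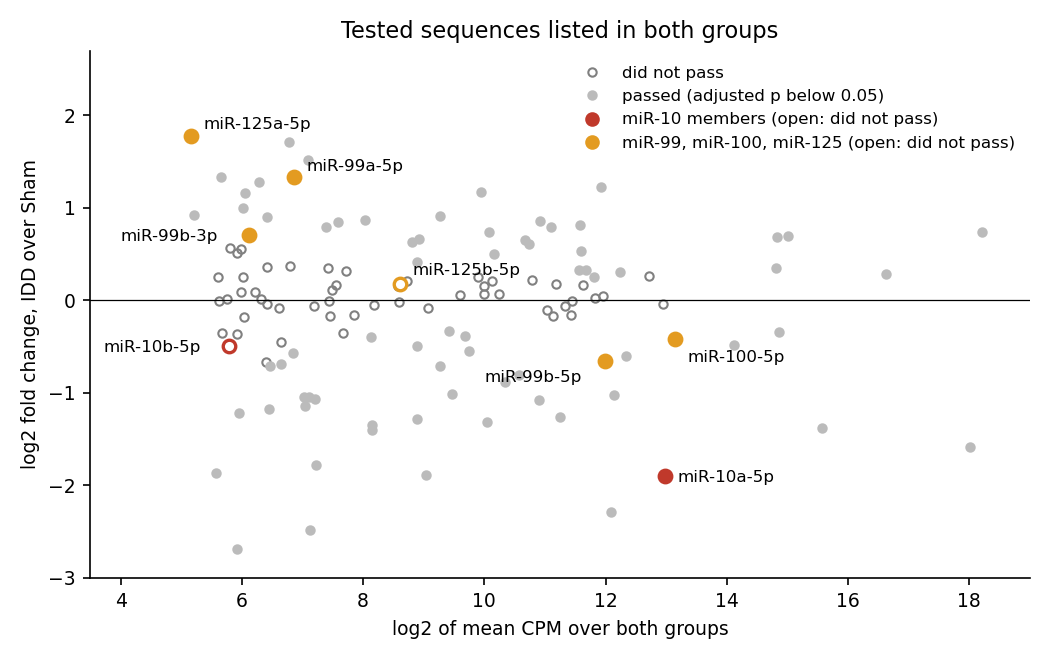
Log2 fold change of IDD over Sham (vertical axis) against log2 of the mean CPM over both groups (horizontal axis) for the 129 tested sequences listed in both groups, with filled points for those that passed (adjusted p below 0.05). miR-10a-5p lies at −1.89 at high abundance and miR-10b-5p at −0.50 at low abundance, while the miR-99, miR-100 and miR-125 sequences lie between −0.65 and 1.78.

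Ratios to all other miRNAs, which need no scaling, placed miR-10a-5p low in IDD against nearly all of them. Among the 106 tested established miRNAs listed in all 6 libraries, the ratio of miR-10a-5p to another miRNA was lower in all 3 IDD libraries than in all 3 Sham libraries for 101 of the 105 others. The exceptions were miR-16-5p, miR-1843a-3p, miR-361-3p and miR-672-5p. The same count was 35 for miR-10b-5p and had a median of 26 over the 106.

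The established miRNAs whose pattern was most like that of miR-10a-5p were taken as those with the smallest root-mean-square distance between profiles of log2(CPM + 1), centred on the mean of the 6 libraries. They were miR-672-5p (distance 0.23), miR-30a-3p (0.30), miR-28-3p (0.35) and miR-30e-3p (0.36), where the median over the 106 sequences compared was 1.05. miR-672-5p stood at 54.2, 97.1 and 54.2 CPM in IDD and 263, 206 and 220 CPM in Sham. For miR-10b-5p the nearest were let-7e-5p (0.15), miR-99b-5p (0.20), miR-328a-3p (0.26) and let-7i-5p (0.28), with a median of 0.51. All 6 points of each profile share their libraries and scaling, so the distances describe these libraries.

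Marker miRNAs of other cells were set beside these values, over established tags and over all tags, and for several lists the denominator decided whether the groups overlapped. The endothelial list, of which miR-126a was the only name listed, held 0.00293% to 0.00401% of established tags in IDD and 0.00590% to 0.00796% in Sham, but 0.00243% to 0.00326% and 0.00318% to 0.00412% of all tags. Both smooth muscle names, miR-143 and miR-145, held 0.0103% to 0.0129% and 0.0191% to 0.0243% of established tags, but 0.00838% to 0.01001% and 0.00946% to 0.0131% of all tags. The red blood cell list (2 of 3 names listed, miR-144 not listed) held 0.0909% to 0.104% and 0.161% to 0.176% of established tags, but 0.0717% to 0.0847% and 0.0796% to 0.0990% of all tags. For these 3 lists IDD was lower over established tags and the groups overlapped over all tags. In the TMM-scaled fit miR-486 of the red blood cell list fell by 0.39 (adjusted p = 0.00650, edgeR). miR-143-3p had −0.45 and did not pass (adjusted p = 0.112). The liver miRNA miR-122 held 0.967% to 1.06% of established tags in IDD and 1.35% to 1.53% in Sham, but 0.804% to 0.862% and 0.669% to 0.861% of all tags, and miR-122-5p had a log2 fold change of −0.04 in the fit (adjusted p = 0.741, edgeR). Neural markers (2 of 3 names, miR-124 not listed) overlapped over established tags, at 0.0250% to 0.0280% and 0.0243% to 0.0335%, and were higher in IDD over all tags, at 0.0195% to 0.0228% against 0.0131% to 0.0188%. Other lists kept their order under both denominators. Epithelial markers were at 0 in IDD, and in Sham miR-200a, the only 1 of 7 names listed, held 0.0215% to 0.0671% of established tags and 0.0106% to 0.0377% of all tags. The summed share of fibroblast and mesenchyme markers (3 of 3 names) was higher in IDD, at 1.19% to 1.31% against 0.973% to 0.989% of established tags and 0.928% to 1.07% against 0.489% to 0.556% of all tags. Its members did not move alike. In the fit miR-21-5p rose by 1.23 (adjusted p = 4.13e-06, edgeR) and miR-199a-3p by 0.33 (adjusted p = 0.0226). miR-199a-5p had −0.08 (adjusted p = 0.684), and miR-214 did not enter the test. The summed share of leukocyte markers (3 of 5 names, miR-142 and miR-155 not listed) was higher in IDD, at 0.0108% to 0.0127% against 0.00811% to 0.0105% of established tags and 0.00843% to 0.0106% against 0.00433% to 0.00589% of all tags, as was that of the skeletal muscle list (5 of 6 names, miR-133b not listed). The leukocyte shares rest on few tags, 3 tags being worth 0.00147% to 0.00314% of established tags. Of that list only miR-342-3p was tested, at 72.5 ± 10.2 CPM in IDD and 28.6 ± 0.717 CPM in Sham (SD, n = 3 each). In Sham it was under the filter, so it entered only through IDD, where it was high. The part of any of these cells in the fall of miR-10a-5p was not tested, and in bulk tissue fewer cells of a type and less RNA per cell cannot be told apart.

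The fall of miR-10a-5p held over the alternatives. Its log2 fold change ran from −2.08 (without Sham 3) to −1.65 (the authors' normalized values) over 16 settings, with an adjusted p of at most 0.000944. The scalings moved the median of all tested sequences from −0.13 (TMM on established names alone) to 0.28 (the authors' normalized values), and relative to that median miR-10a-5p stood at −1.91 to −1.93 under the 5 scalings of the filtered table. For miR-10b-5p the same range was −0.74 to −0.18, below 0 but without a call under all 15 settings (adjusted p 0.0667 to 0.592). The difference between the log2 fold changes of the members lay between −1.60 and −1.06 over those settings.

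**Figure D5:**
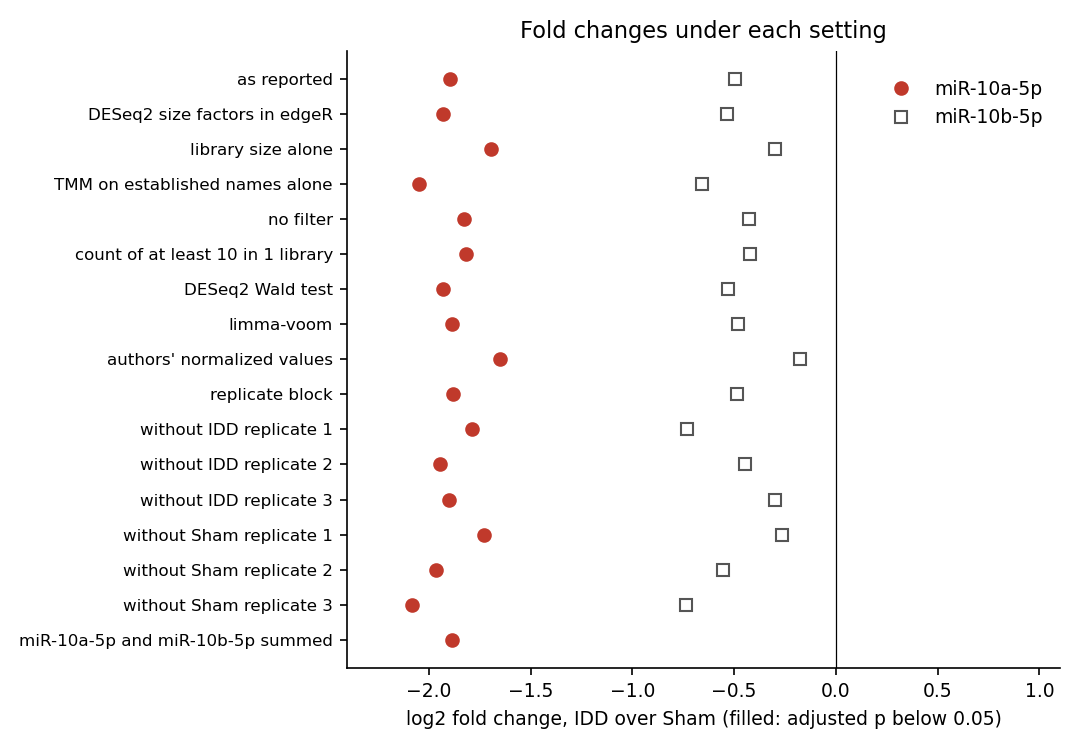
Log2 fold change of IDD over Sham (horizontal axis) of miR-10a-5p (red circles) and miR-10b-5p (grey squares) under each setting (vertical axis), with filled symbols for an adjusted p below 0.05. miR-10a-5p lies between −2.08 and −1.65 and passes in each row, and miR-10b-5p lies between −0.74 and −0.18 and passes in none.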

How the data were processed

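Per the labels' protocols, adaptors were ligated to total RNA of nucleus pulposus tissue, and the size-selected products were run on an Illumina sequencer. The deposited main table holds raw tag counts, as its header says. The build Rnor_6.0 and the tools Novoalign 3.02.12 and cutadapt 1.9.3 come from the submitters' processing notes. How tags were assigned to miRNAs, mismatches included, is stated in no source at hand. A further deposited table holds counts that the authors normalized and rounded, treated here as a score and used as an alternative.

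The 491 rows were merged to 442 sequences and blanks set to 0. Sequences were filtered with filterByExpr (minimum count 10), scaled with TMM and tested with edgeR 4.0.16 (R 4.3.3), robust quasi-likelihood, IDD against Sham, with Benjamini-Hochberg adjustment over 131 sequences at 0.05. The SE is the absolute log2 fold change over the root of F. A floor of 3 counts is worth 11.6 to 16.9 CPM. Intervals and floors describe counting error alone, PCR copies not being independent. Alternatives used limma 3.58.1 (voom on the filtered counts, and a fit to log2 of the authors' deposited values plus 1) and DESeq2 1.42.0. The fit was tested on simulated data. Replicates differed by more than counting noise.

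The groups share the numbers 1 to 3. Same-numbered libraries deviated together weakly (correlations 0.111, 0.112 and 0.204), which meets the criterion used for pairing (over 0.1 in each pair). This rests on the values and on no label, and IDD 2 with Sham 1 had 0.109, so pairing is not established. The main tests are unpaired, and the replicate block is an alternative. Further miRNAs were named by rules on family, likeness of pattern, neighbouring rank and cell type markers. Members, lists and tests were chosen with earlier results of these data known. Plots used matplotlib 3.10.9.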

Additional observations from a re-analysis of the deposited data

How the results depend on the processing

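With the replicate block, the log2 fold change was −1.88 for miR-10a-5p (adjusted p = 8.29e-06, edgeR) and −0.49 for miR-10b-5p (adjusted p = 0.205), and it changed no call of a member. The number of sequences past the threshold, 78, rose to 285 of 442 without the filter on low counts, for which the cause was not tested, and was 57 to 93 under the other settings. Leaving out 1 library gave 58 to 77 calls, log2 fold changes of −2.08 to −1.73 for miR-10a-5p and −0.74 to −0.26 for miR-10b-5p, and a log2 ratio difference of −1.64 to −1.11. The miR-10b-5p estimate moved by over 0.2 without Sham 3 (−0.74), IDD 1 (−0.73) or Sham 1 (−0.26), and further on the authors' normalized values (−0.18). The shares and ratios kept their direction under all alternatives, but their exact p cannot fall below 0.1 and says nothing about stability. With same-numbered libraries taken as pairs, the exact two-sided sign-flip test gave p = 0.25 for the ratio and for each share tested. That is the smallest p that 3 pairs allow. At 8 to 18 tags per library, depth limits what can be said of miR-10b-5p, and more so of miR-196.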
